A study of Mus musculus with 12 samples.

Results

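The 10 genes of the vascular endothelial growth factor (VEGF) family were followed through mouse lung development, 5 ligands and 5 receptors or co-receptors. They were chosen by symbol, after Ensembl identifiers had been matched to mouse gene symbols, and all 10 were among the 16152 genes of the count table. Whole lungs of wild-type C57BL/6 mice, male and female, supplied the RNA, collected at E15.5 and E18.5, before birth, and at P5 and P8, after birth. There were 3 libraries per time-point and 12 libraries in all, without any genetic change or treatment. The replicates of a time-point were littermates, so litter and time-point cannot be told apart, and p-values measure only the spread between these libraries. The libraries held between 41337443 and 53901957 counted reads, and the members between 221 and 26051 reads each per library.

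VEGF ligands are secreted dimers that bind receptor tyrosine kinases on endothelial cells and drive the growth of blood and lymphatic vessels. VEGFA signals mainly through VEGFR2 (*Kdr*), VEGFB and placental growth factor bind VEGFR1 (*Flt1*), and VEGFC and VEGFD bind VEGFR3 (*Flt4*). Neuropilins (*Nrp1*, *Nrp2*) are co-receptors that also bind class 3 semaphorins. In the lung, alveolar epithelial cells are a known source of VEGFA and the capillary network is its main target.

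The members lie on 8 chromosomes of the GRCm38 (mm10) assembly. *Vegfa* spans chr17:46016993-46032369, *Vegfb* chr19:6982473-6987651, *Vegfc* chr8:54077606-54187096, *Vegfd* chrX:164373378-164402650 and *Pgf* chr12:85166635-85177790. *Kdr* spans chr5:75932827-75978458, *Flt1* chr5:147561604-147726011, *Flt4* chr11:49609263-49652739, *Nrp1* chr8:128358604-128503363 and *Nrp2* chr1:62703285-62818695. Only *Nrp1* shared exonic bases with another annotated gene, 80 bases with the microRNA *Mir1903*.

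One splice choice of *Vegfa* is described here, and its sequence is shown because the level of exon 6 differed between time-points. Exon 6 (chr17:46022277-46022348, minus strand, 72 bases, all coding) encodes part of the heparin-binding stretch of the longer VEGFA isoforms. Exons 5 (chr17:46024065-46024094), 6 and 7 (chr17:46020991-46021122) follow each other as below in the annotated transcript that holds all 3, with exon 6 in capitals. The deposited splice event carries no coordinates and is taken as exon 6 from the study's text, and the annotation also holds a shorter form of this exon.
Vegfa exons 5 to 7: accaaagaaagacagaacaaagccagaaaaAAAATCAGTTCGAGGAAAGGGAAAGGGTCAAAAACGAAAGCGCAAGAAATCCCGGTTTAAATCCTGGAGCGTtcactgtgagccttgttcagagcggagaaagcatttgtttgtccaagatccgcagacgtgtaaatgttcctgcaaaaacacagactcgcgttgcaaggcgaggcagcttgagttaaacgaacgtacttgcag

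RefSeq promoters (GRCm38, from 250 bases before to 50 after the start) are shown, those of 2 receptors that were higher after birth and of the ligand that fell most. *Kdr* (chr5:75978406-75978705, minus strand) and *Flt1* (chr5:147725962-147726261, minus strand) encode receptors of endothelial cells, where ETS family factors are known regulators. *Vegfb* is at chr19:6987602-6987901, minus strand. Capitals mark GGAAG, 1 form of the ETS core, on either strand, and other forms of that core are not marked.
Kdr: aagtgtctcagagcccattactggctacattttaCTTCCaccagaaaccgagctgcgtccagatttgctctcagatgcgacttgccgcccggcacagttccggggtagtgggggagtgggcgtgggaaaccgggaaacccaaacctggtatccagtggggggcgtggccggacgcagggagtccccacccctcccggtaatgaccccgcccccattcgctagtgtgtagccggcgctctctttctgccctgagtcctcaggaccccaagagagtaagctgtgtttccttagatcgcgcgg
Flt1: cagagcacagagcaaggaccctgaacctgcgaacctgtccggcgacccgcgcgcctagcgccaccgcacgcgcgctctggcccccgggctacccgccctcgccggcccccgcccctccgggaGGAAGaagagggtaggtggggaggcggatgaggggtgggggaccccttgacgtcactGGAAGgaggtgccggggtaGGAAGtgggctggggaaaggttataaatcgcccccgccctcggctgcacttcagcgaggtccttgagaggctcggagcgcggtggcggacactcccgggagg
Vegfb: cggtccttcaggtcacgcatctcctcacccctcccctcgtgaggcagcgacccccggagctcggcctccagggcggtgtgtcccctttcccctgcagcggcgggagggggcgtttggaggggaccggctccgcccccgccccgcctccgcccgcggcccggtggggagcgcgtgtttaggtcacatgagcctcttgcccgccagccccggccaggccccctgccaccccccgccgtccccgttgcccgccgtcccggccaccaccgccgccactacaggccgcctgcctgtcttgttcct
Over the 12 promoter windows of the 10 members, 8 held GGAAG at least once, as did 71.4% of all 32851 windows in the RefSeq set. Of the 10 members 7 held it, and *Vegfb*, *Vegfc* and *Nrp2* did not. The hypoxia response core ACGTG, searched on both strands, was found in 1 of the 12 windows, that of the second start of *Vegfa*, and in 19.6% of all windows. These matches describe the letters alone.

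The members are described in 3 groups by their change across birth. *Vegfa* and the receptors were higher after birth, and *Vegfb* and *Pgf* were lower at P5. From E18.5 to P5 *Vegfc* and *Vegfd* rose by less than *Vegfa*. *Flt4*, among the receptors, rose about as little as *Vegfd* in that interval (log2 fold changes 0.55 and 0.48). Levels are in CPM, the reads of a gene scaled by the mapped reads of its library, given per library in the order of replicates 1, 2 and 3. In whole lung, fewer cells of a type and less RNA per cell cannot be told apart.

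*Vegfa*, the principal angiogenic ligand, was at 95.9, 105 and 113 CPM at E15.5 and at 135, 97.9 and 105 CPM at E18.5. At P5 it was at 269.5, 331 and 320.0 CPM, and at P8 at 311, 319 and 428 CPM. The embryonic and postnatal ranges did not overlap, while those of E15.5 and E18.5, and of P5 and P8, did. *Vegfb*, a ligand of VEGFR1, went the other way, with 40.0, 40.8 and 38.1 CPM at E15.5 and 43.8, 39.8 and 38.4 CPM at E18.5. It was at 20.7, 22.6 and 22.8 CPM at P5 and at 25.7, 27.4 and 19.7 CPM at P8, so that every postnatal library lay below every embryonic library.

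*Pgf* encodes placental growth factor, a second VEGFR1 ligand, and was the lowest member. It was at 5.99, 7.53 and 7.24 CPM at E15.5 and at 8.33, 5.19 and 6.12 CPM at E18.5. It was at 4.38, 4.56 and 4.47 CPM at P5 and at 5.83, 4.90 and 5.95 CPM at P8. The P5 libraries lay below all others, and P8 overlapped E18.5. *Vegfc*, which guides lymphatic growth, was at 14.5, 19.1 and 15.3 CPM at E15.5 and at 17.8, 15.52 and 16.1 CPM on E18.5. After birth it was at 18.9, 19.7 and 19.4 CPM (P5) and 18.3, 16.8 and 18.97 CPM (P8). Its P5 libraries lay above those of E18.5, and other pairs of time-points overlapped. *Vegfd*, the other VEGFR3 ligand, had E15.5 values of 57.6, 52.7 and 57.9 CPM and E18.5 values of 79.8, 77.8 and 76.8 CPM. Its P5 values were 107, 104 and 96.6 CPM and its P8 values 77.2, 80.2 and 104 CPM. The ranges were separate up to P5, and 2 of the 3 P8 libraries were back near the E18.5 values.

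**Figure D1:**
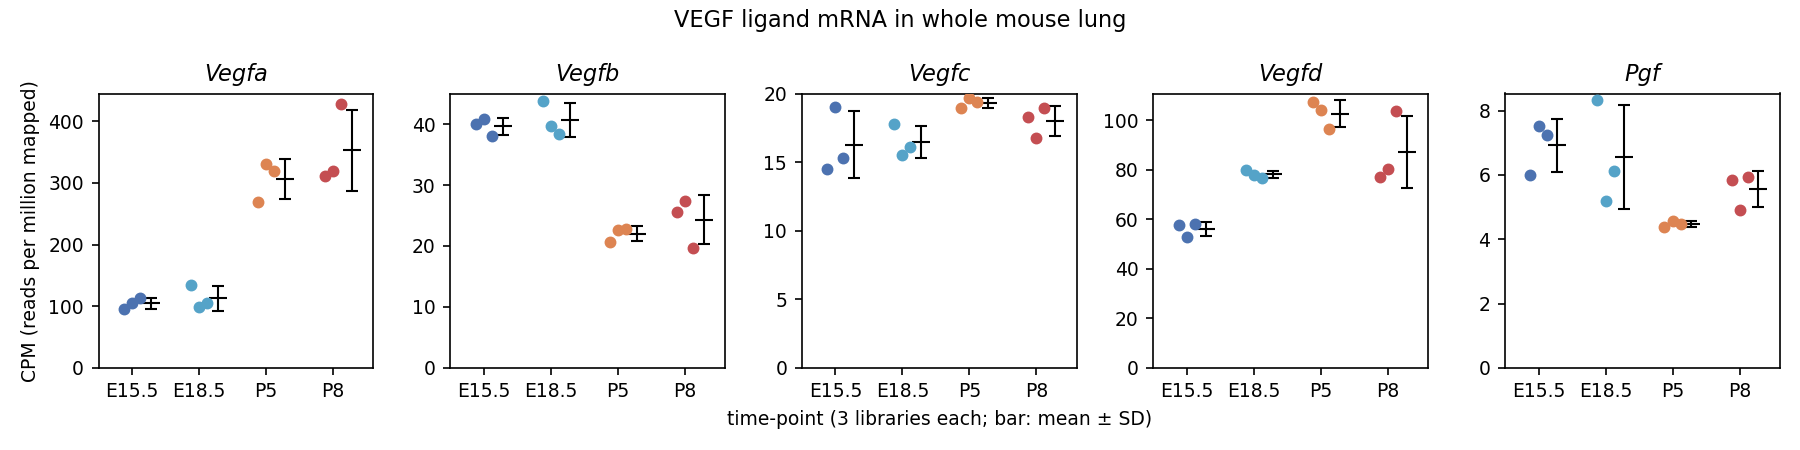
CPM (y axis, each panel with its own scale from 0) of the 5 ligands in every library (points) at the 4 time-points (x axis), with the mean ± SD of 3 libraries as a bar. *Vegfa* lies at 95.9 to 135 CPM before birth and at 269.5 to 428 CPM after it, while *Vegfb* falls to between 19.7 and 27.4 CPM.

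Among the receptors, *Kdr*, which encodes the main signalling receptor of VEGFA, was at 113, 84.3 and 118 CPM at E15.5 and at 138, 143 and 126 CPM at E18.5. It was at 313, 317 and 307 CPM at P5 and at 271, 272 and 324 CPM at P8. *Nrp1*, a co-receptor of VEGFA, was at 94.2, 79.0 and 95.8 CPM, then at 104, 98.6 and 97.4 CPM, then at 224, 206 and 198 CPM, and at 196, 203 and 228 CPM at P8. Both genes had separate ranges at E15.5, E18.5 and P5, and overlapping ranges at P5 and P8.

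*Flt1* encodes VEGFR1, which also occurs as a soluble trap for its ligands, and these counts do not separate the forms. It had 35.8, 29.2 and 34.8 CPM in the E15.5 libraries, 62.6, 44.2 and 43.9 CPM (E18.5), 91.6, 94.9 and 90.6 CPM (P5) and 80.8, 88.9 and 99.8 CPM (P8). *Flt4*, the VEGFC and VEGFD receptor, had 39.2, 30.6 and 40.3 CPM (E15.5), 46.4, 45.3 and 43.6 CPM (E18.5), 62.6, 64.3 and 60.2 CPM (P5) and 54.6, 51.4 and 60.2 CPM (P8). *Nrp2*, a co-receptor of VEGFC, was at 47.6, 40.5 and 51.8 CPM, then at 77.6, 76.7 and 73.5, then at 137, 136 and 132, and at 121, 117 and 124 at P8. For each of the 3, E15.5, E18.5 and P5 did not overlap, and for *Flt4* and *Nrp2* the P8 libraries lay below those of P5. Replicate 2 of E15.5 was the lowest of the 12 libraries for all 5 receptors.

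**Figure D2:**
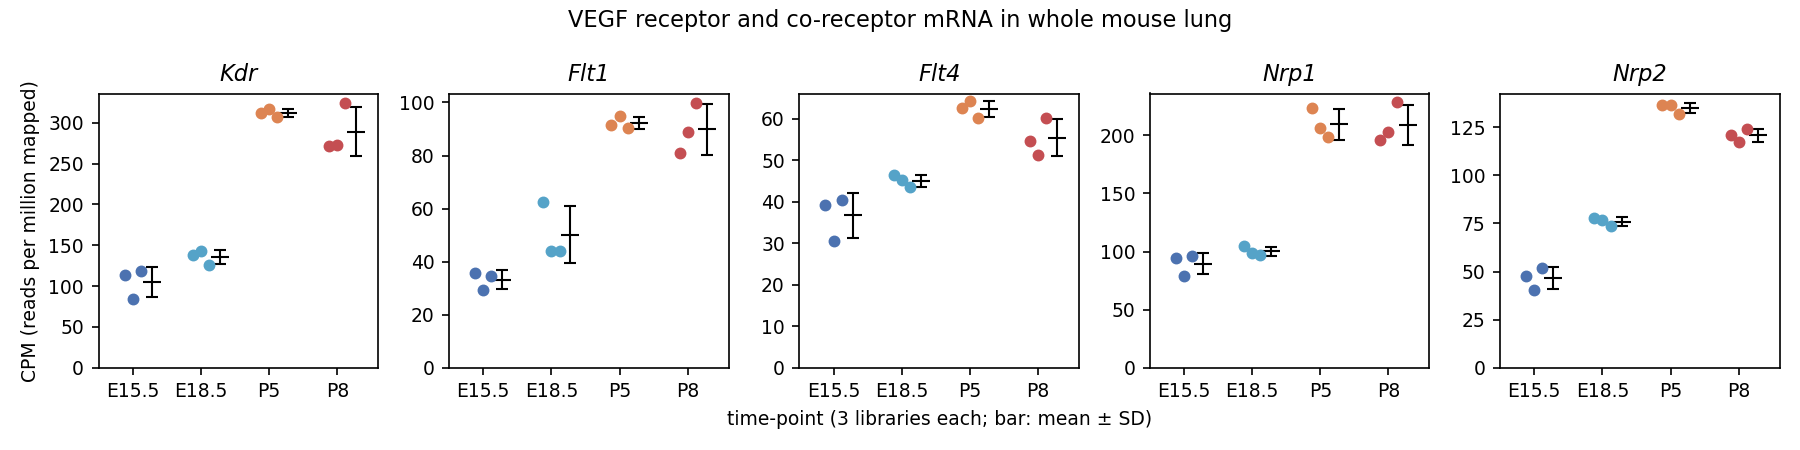
CPM (y axis, each panel with its own scale from 0) of the 5 receptors and co-receptors in every library (points) at the 4 time-points (x axis), with the mean ± SD of 3 libraries as a bar. *Kdr* lies at 84.3 to 143 CPM before birth and at 271 to 324 CPM after it, and the other 4 panels keep the same order of E15.5, E18.5 and P5.

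Levels of different genes were compared per kilobase of annotated exon. At E15.5, *Vegfb* (24.7 ± 0.868 CPM per kb, SD, n = 3), *Vegfa* (24.4 ± 2.02) and *Vegfd* (23.3 ± 1.21) overlapped at the top of the family. At P5, *Vegfa* stood first at 71.6 ± 7.63 CPM per kb, followed without overlap by *Vegfd* at 42.6 ± 2.26 and *Kdr* at 34.6 ± 0.554. *Vegfa* made up 28.1% ± 2.5 of the summed per-kilobase level of the 5 ligands at E18.5 and 52.0% ± 3.0 at P5, and *Vegfb* 27.3% ± 0.770 and 9.999% ± 0.243. Among the 5 receptors *Kdr* was the highest at each time-point, with 36.7% ± 1.495 of their sum at E18.5 and 42.3% ± 0.706 at P5. The share of *Flt4* went from 13.4% ± 0.262 to 9.26% ± 0.178. *Pgf* was the lowest member at all 4 time-points, although it overlapped *Flt1* at E15.5.

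Before birth, from E15.5 to E18.5, the largest differences were in *Nrp2* and *Flt1*. Differential expression was tested over 15994 genes in one fit of all 12 libraries with edgeR's quasi-likelihood test, and a call needed a log2 fold change beyond 1 in either direction together with an FDR (Benjamini-Hochberg) under 0.05. None of the 10 members was called, against 3.04% of all genes tested. By the FDR alone 5 members rose and none fell, where 21.5% of all genes passed, 11.6% higher and 9.87% lower. These were *Nrp2* (log2 fold change 0.71, standard error 0.080, FDR = 4.7e-04), *Flt1* (0.60, FDR = 0.0088), *Vegfd* (0.48, FDR = 0.0053), *Kdr* (0.37, FDR = 0.037) and *Flt4* (0.30, FDR = 0.049). The ranges of 6 members were separate and higher at E18.5, against 18.3% of genes, and of none lower, against 19.8%. RNA of heart muscle differed between these libraries. The summed level of 5 cardiac muscle markers, all detected at E15.5, was 789.6 and 906 CPM in replicates 1 and 2 of E15.5, 23.4 CPM in replicate 3 and 17.6 to 44.5 CPM at E18.5, where *Nppa* was at 0 in 1 library. Without replicates 1 and 2, which leaves E15.5 with 1 library assumed to vary like the other groups, only *Nrp2* passed the FDR. With 1 library left out at a time, *Vegfd*, *Flt1* and *Nrp2* passed in all 12 fits, while the count ranged from 3 to 5. *Kdr* and *Flt4* passed in only some of these fits. Without E15.5 replicate 2, *Kdr* was at 0.23 (edgeR FDR = 0.087) and *Flt4* at 0.19 (FDR = 0.14), and without replicates 1 and 2 of E15.5 they were at 0.19 (FDR = 0.35) and 0.15 (FDR = 0.42).

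Across birth, from E18.5 to P5, *Vegfa* and the receptors rose, *Vegfb* and *Pgf* fell, and the 3 members past both cutoffs were *Vegfa*, *Kdr* and *Nrp1*. Called higher were 3 members, against 17.5% of all genes tested, and called lower were none, against 9.34%. The log2 fold changes were 1.53 for *Vegfa* (standard error 0.14, edgeR FDR = 9.3e-07), 1.29 for *Kdr* (standard error 0.11, FDR = 6.6e-07) and 1.15 for *Nrp1* (standard error 0.089, FDR = 1.9e-07), which are 2.89-, 2.45- and 2.22-fold. All 10 members passed the FDR alone, 8 higher and 2 lower, as did 71.1% of all genes, 35.4% higher and 35.7% lower. The ranges of the same 8 and 2 members did not overlap, against 34.4% of genes higher and 42.6% lower. *Flt1* (0.96, standard error 0.13) and *Nrp2* (0.92, standard error 0.080) lay just under the fold cutoff, and *Flt1* passed it at 1.17 without replicate 1 of E18.5. *Flt4* rose by 0.55, *Vegfd* by 0.48 and *Vegfc* by 0.32. *Vegfb* fell by 0.80 (standard error 0.11, FDR = 2.4e-05) and *Pgf* fell by 0.46 (standard error 0.18, FDR = 0.036). The FDR of *Pgf* was not passed without replicate 1 of E18.5, where its log2 fold change was -0.24, or without any one library of P5. That of *Vegfc* was not passed without E18.5 replicate 2, E18.5 replicate 3 or P5 replicate 1. *Vegfc* also did not pass with library size or total mapped reads as the only scaling. The median log2 fold change was 0.96 over the 5 receptors, 0.32 over the 5 ligands and -0.0024 over all genes tested.

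After birth, from P5 to P8, no member passed the FDR, against 18% of all genes tested, or both cutoffs, against 2.96%. The ranges were separate and higher at P8 for 1 member, *Pgf*, against 20.8% of genes, and lower for 2, *Flt4* and *Nrp2*, against 16.3%. The lowest FDRs among the members were those of *Vegfd* (-0.26, standard error 0.095, edgeR FDR = 0.079) and *Nrp2* (-0.18, standard error 0.079, FDR = 0.13). DESeq2 also found no member past its adjusted threshold. *Vegfa* differed by 0.18 (standard error 0.14, FDR = 0.38) and *Kdr* by -0.13 (standard error 0.11, FDR = 0.45). Thymus RNA differed between these libraries, with 10 thymocyte markers summing to 228 and 433 CPM in replicates 1 and 2 of P8, 24.2 CPM in replicate 3 and 14.5 to 19.9 CPM at P5, where *Ptcra* was at 0 in 1 library. Without these 2 libraries and E15.5 replicate 2, P8 was left with 1 library, replicate 3. In that fit the log2 fold changes of *Kdr*, *Flt1* and *Nrp1* were 0.027, 0.087 and 0.099. The FDR was passed by *Nrp2* without E15.5 replicate 2, and by *Vegfb* (higher) and *Vegfd* (lower) without P8 replicate 3. Replicate 3 was the highest of the 3 P8 libraries for 9 of the 10 members and the lowest for *Vegfb*.

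Over the whole span from E15.5 to P8, *Vegfa*, *Kdr*, *Flt1*, *Nrp2* and *Nrp1* were called higher, 5 of 10 members against 20.9% of all genes, and none was called lower, against 11.5%. Their log2 fold changes were 1.82, 1.53, 1.51, 1.45 and 1.30, with standard errors between 0.081 and 0.14. *Vegfd* (0.71) and *Flt4* (0.67) also rose by the FDR alone, which makes 7 members against 37.6% of genes, *Vegfb* fell by 0.63, 1 member against 38.7%, and *Vegfc* (0.22, edgeR FDR = 0.082) and *Pgf* (-0.24, FDR = 0.25) did not pass. This comparison shares its libraries with those above.

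Because VEGF receptors are known on endothelial cells, the members were set beside 10 pan-endothelial markers. Whole lung does not show which cells hold each receptor or co-receptor. From E18.5 to P5, 8 of these 10 markers were called higher, against 17.5% of all genes tested. Their median log2 fold change was 1.16, and their summed level went from a median of 1419 to 2956 CPM. Single markers rose by between 0.34 (*Emcn*) and 2.24 (*Cldn5*). The fit below takes the scaling as known, so its standard errors and FDRs leave out this spread. When each library was scaled by the geometric mean of these markers in place of its size, *Kdr* (0.084, standard error 0.11, edgeR FDR = 0.47), *Nrp1* (-0.059, standard error 0.091, FDR = 0.55) and *Flt1* (-0.25, standard error 0.13, FDR = 0.093) did not differ from the markers past the FDR, although *Flt1* did without E18.5 replicate 2 (-0.35, FDR = 0.027). *Flt4* (-0.66, standard error 0.10, FDR = 3.0e-05) and *Nrp2* (-0.29, standard error 0.094, FDR = 0.0095) rose less than the geometric mean of the markers. Without this scaling they rose by 0.55 and 0.92, within the range of single markers. *Vegfa* was higher relative to the geometric mean (0.32, standard error 0.12, FDR = 0.021). This call was lost without E18.5 replicate 2 (0.21, FDR = 0.11), E18.5 replicate 3 (FDR = 0.063), P5 replicate 2 (FDR = 0.066) or P5 replicate 3 (FDR = 0.067). The other ligands were lower relative to the markers, *Vegfb* by -2.01, *Pgf* by -1.68, *Vegfc* by -0.89 and *Vegfd* by -0.73. On this scale 1 member was higher and 6 were lower, against 10% and 78.1% of all genes.

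On the same scale 1 member was higher (*Nrp2*, 0.39, edgeR FDR = 0.0055) and 1 lower (*Vegfc*, -0.29, FDR = 0.048) from E15.5 to E18.5, against 2.92% and 45.5% of all genes. The call of *Vegfc* was lost with the replicate block (FDR = 0.076) and in 9 of the 12 fits that left out 1 library, most of all without E15.5 replicate 2 (-0.18, FDR = 0.201). Without the cardiac-rich libraries neither passed (*Nrp2* 0.25, FDR = 0.15, and *Vegfc* -0.199, FDR = 0.34), and *Nrp2* was at 0.16 (FDR = 0.083) when scaled by *Pecam1* and *Cdh5* alone. From P5 to P8 the markers themselves had a median log2 fold change of -0.25. By the FDR alone 5 of the 10 markers were lower, where 18% of all genes passed in either direction. Relative to the markers, *Vegfa* (0.44, FDR = 0.013), *Vegfb* (0.41, FDR = 0.049) and *Pgf* (0.56, FDR = 0.029) were higher and no member was lower, against 34.4% and 0.488%. Without this scaling the 3 members were at 0.18, 0.12 and 0.30, and none passed the FDR. None of these 3 passed the FDR when scaled by *Pecam1* and *Cdh5* alone. Without the 3 libraries richest in thymus RNA, which leaves P8 with 1 library, *Vegfa* was at 0.55, *Vegfb* at -0.091 and *Pgf* at 0.48. The call of *Vegfb* was lost with the replicate block (FDR = 0.066) and in 11 of the 12 fits that left out 1 library, falling to 0.25 (FDR = 0.24) without P8 replicate 2. That of *Pgf* was lost without any one library of P5 or without replicate 1 or 2 of P8 (FDR between 0.058 and 0.096), and that of *Vegfa* without P5 replicate 1 (FDR = 0.061).

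**Figure D3:**
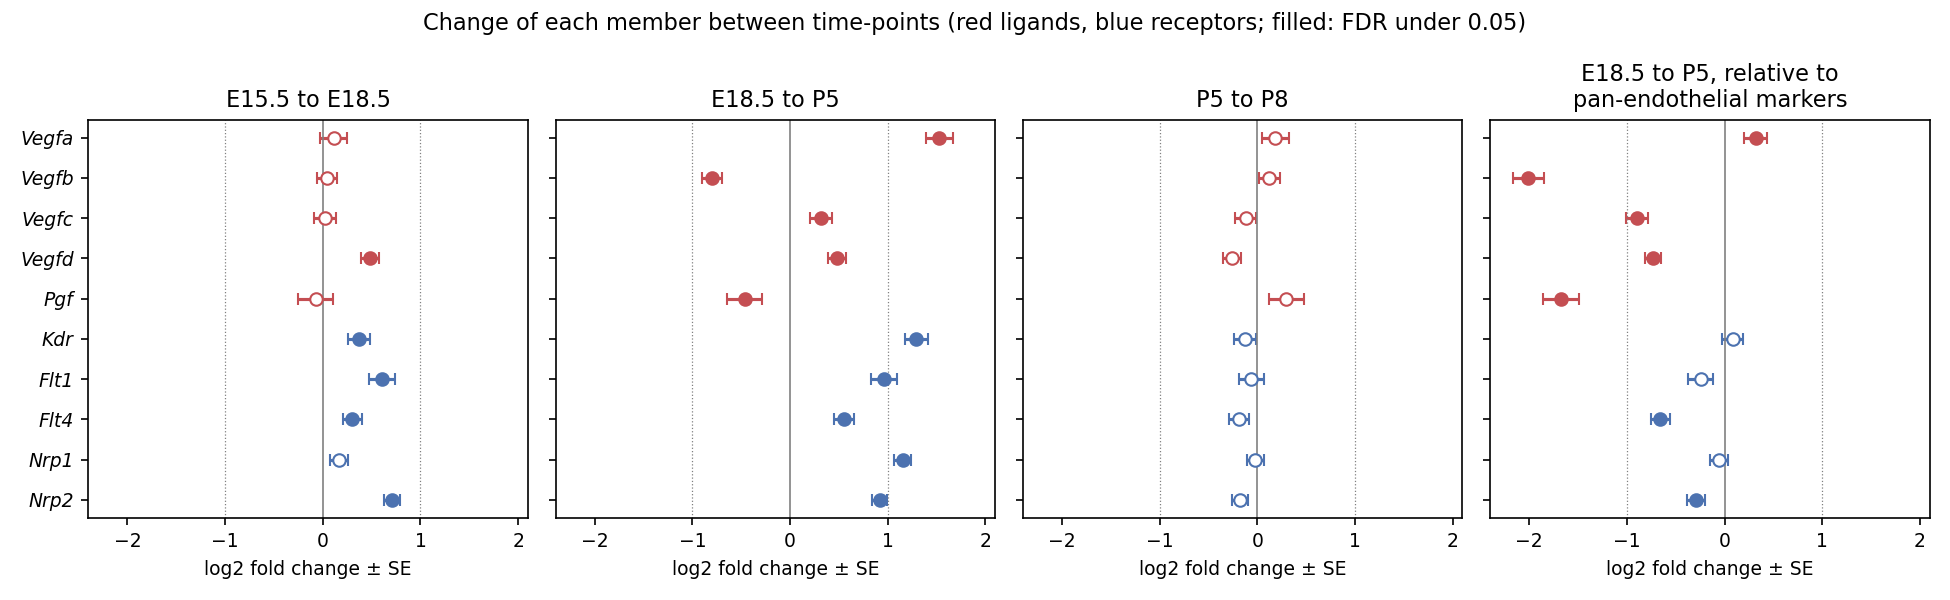
Log2 fold change ± standard error (x axis; dotted lines at 1 and -1) of each member (y axis; ligands in red, receptors in blue) in 3 comparisons of adjacent time-points and, in the last panel, from E18.5 to P5 relative to 10 pan-endothelial markers; filled points passed an edgeR FDR of 0.05. *Vegfa*, *Kdr* and *Nrp1* lie beyond 1 from E18.5 to P5, and no point is filled from P5 to P8.

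Ratios of 2 members within a library do not depend on its scaling. Each of 5 ratios was compared between 6 embryonic and 6 postnatal libraries with an exact two-sided permutation test, and each side holds 2 litters. *Vegfc* relative to *Flt4*, a ligand beside its receptor, was lower after birth in every library, by -0.34 on the log2 scale (0.789-fold, exact p = 0.0022, the smallest the design gives, adjusted over 5 ratios 0.011). Its mean log2 ratio went from -1.17 ± 0.42 (E15.5) and -1.45 ± 0.082 (E18.5) to -1.69 ± 0.048 (P5) and -1.62 ± 0.044 (P8; SD, n = 3). One E15.5 library, replicate 2, stood at -0.68, and without it the difference was -0.22 (exact test, adjusted p = 0.022).

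*Vegfd* relative to *Vegfc* (0.31, exact adjusted p = 0.097), *Flt1* relative to *Kdr* (-0.17, exact adjusted p = 0.10) and *Vegfa* relative to *Kdr* (0.26, exact adjusted p = 0.12) did not pass after adjustment. *Nrp2* relative to *Nrp1* differed by -0.039 between the sides (exact adjusted p = 0.78). Within them the latter ratio was not level. It stood at -0.94 ± 0.051 (E15.5), -0.40 ± 0.033 (E18.5), -0.63 ± 0.070 (P5) and -0.79 ± 0.095 (P8), and the E18.5 libraries lay above all others. An exact permutation test of 3 against 3 libraries cannot go below 0.10, so the ratios at single time-points are given as values only.

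The inclusion of *Vegfa* exon 6, given by the authors as percent spliced in, was 17.5, 17.5 and 6.97% at E15.5 and 10.96, 8.77 and 8.60% at E18.5. It was 48.6, 42.0 and 46.3% at P5 and 49.97, 47.0 and 47.1% at P8. All 6 postnatal libraries lay above all 6 embryonic libraries. The study selected this event on these libraries, so no test is given. Between 179 and 1365 reads informed each value. At E15.5, replicate 3 was at 6.97% (95% Wilson interval 3.88 to 11.4%, covering counting error only), below replicates 1 (13.2 to 23.3%) and 2 (12.8 to 23.5%). Replicates 1 and 2 are the libraries with 789.6 and 906 CPM of cardiac muscle markers, and the part of that RNA in the difference was not tested.

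Multiplying the CPM of *Vegfa* by the inclusion gave an estimate of 10.8 ± 3.46 CPM with exon 6 at E18.5 and 139 ± 8.68 CPM at P5 (SD, n = 3). The remainder without exon 6 was 102 ± 16.2 CPM and 167 ± 26.9 CPM. At P8 the estimates were 169 ± 28.6 and 184 ± 37.5 CPM, and the ranges of the 2 forms overlapped at both P5 and P8. One intron of *Vegfd*, whose position is not given in the sources used here, was retained in 20.1, 18.8 and 23.3% of transcripts at E15.5 and 22.3, 27.9 and 28.5% at E18.5. Retention was 42.6, 37.7 and 39.4% at P5 and 47.1, 34.4 and 38.4% at P8, with no overlap between embryonic and postnatal libraries. The study selected this event, too, on these libraries, so the separation is not independent of that choice and no test is given.

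**Figure D4:**
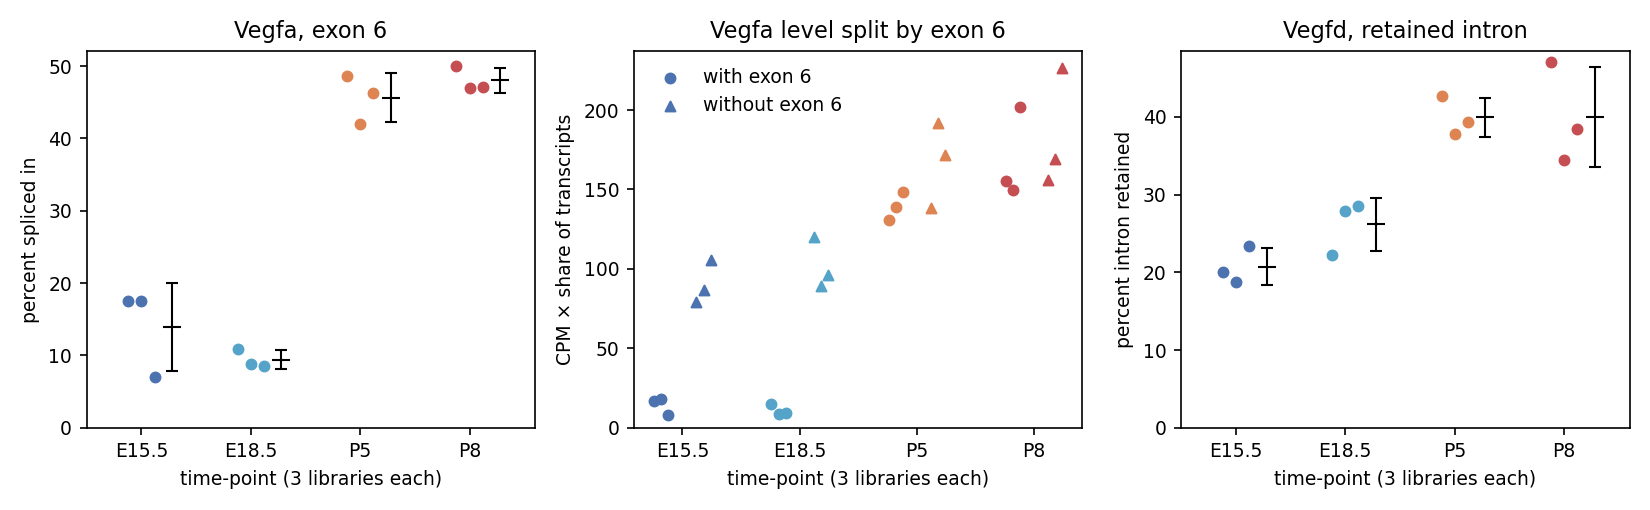
Inclusion of *Vegfa* exon 6 in percent (left), *Vegfa* CPM split into transcripts with (circles) and without (triangles) exon 6 (middle) and retention of one *Vegfd* intron in percent (right) in every library at the 4 time-points, with bars for the mean ± SD of 3 libraries in the outer panels. Exon 6 inclusion lies between 6.97 and 17.5% before birth and between 42.0 and 49.97% after it.

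Genes around the members in the pathway were counted from lists of known components. From E18.5 to P5, 17.5% of all genes tested were called higher and 9.34% lower. From E18.5 to P5, among 7 genes for the processing of VEGFC and VEGFD 1 was called higher and 1 lower. *Adamts3*, the protease that activates VEGFC, fell by 1.59 on the log2 scale, and *Pcsk5*, a proprotein convertase, rose by 1.03. Among 12 class 3 semaphorins and plexins, which share the neuropilins, 5 were called higher and 2 lower, and *Sema3g* (2.61), *Sema3b* (2.299) and *Sema3c* (2.096) rose most.

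Among 14 partners of the receptors on endothelial cells, 4 were called higher and 1 lower, against 17.5% and 9.34% of all genes. *Ptprb*, the vascular endothelial phosphatase and also in the general capillary list, rose by 2.31, *Itgb3* by 1.66 and *Clec14a* by 1.64. Of 28 signal transducers downstream of the receptors, 1 was called higher, *Sh2d2a* (4.82, standard error 1.24), an adaptor also known from T cells. In the same comparison 5 of 9 thymocyte markers tested were called higher, and 1 of the 10, *Dntt*, was not tested. The 10 summed to between 4.50 and 4.82 CPM at E18.5 and between 14.5 and 19.9 CPM at P5. Their part in the change of *Sh2d2a* was not tested. Among 12 genes known to respond to VEGF in endothelial cells, 9 were called higher and 1 lower, with a median of 1.33. *Esm1* rose by 2.302 and *Kcne3* by 1.73, while *Egr3*, an immediate early transcription factor, fell by 1.99. The 10 pan-endothelial markers, set beside these 12 genes, had 8 called higher and a median of 1.16.

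Of 7 genes that control *Vegfa* through hypoxia-inducible factors, *Epas1* (HIF-2α) rose by 3.74 (standard error 0.14, edgeR FDR = 1.0e-09) and *Egln3*, a prolyl hydroxylase, fell by 2.05. The other 5 were not called. By the FDR alone 1 of the 7 was higher and 3 were lower, against 35.4% and 35.7% of all genes. Besides *Egln3*, the lower genes were *Egln1* (-0.62) and *Hif1a* (-0.37). The background for the counts of called genes is 26.8% of all genes called in either direction.

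Cell markers moved in the same interval. From E18.5 to P5, all 7 alveolar type 1 markers and all 5 alveolar type 2 markers were called higher, with medians of 3.10 and 4.28, and 4 of 5 general capillary, 3 of 5 aerocyte and 4 of 6 lymphatic markers were called higher. One lymphatic marker, *Mmrn1* (-1.12), was called lower, and *Prox1* did not pass the FDR (0.35, edgeR FDR = 0.068). Of the lymphatic markers called higher, *Thy1* (2.26) had a standard error of 0.72 and *Reln* (1.24) of 0.41. Over all genes tested, 17.5% were called higher and 9.34% lower. By the FDR alone, the aerocyte marker *Ednrb* (-0.44) and the general capillary marker *Aplnr* (-0.42) were lower. Of 5 mesenchymal markers 1 was called higher. The summed level of the alveolar type 1 markers was between 231 and 322 CPM at E18.5 and between 2315 and 2459 CPM at P5, and no library overlapped. Their part in the change of *Vegfa* was not tested.

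The genes whose profile was most like each member over the 12 libraries are given as a description, as Pearson's r of log2(CPM + 1) among 10609 genes of at least 10 CPM on average, and the libraries share time-points and litters. *Kdr* was nearest to *Hmcn1* (0.998) and *Tnc* (0.997), *Nrp1* to *Adgrf5* and *Col4a4* (both 0.995), and *Nrp2* to *Hivep3* (0.993) and *Itga1* (0.992). *Flt1* was nearest to *Mtss1* and *Myadm* (0.990 and 0.990) and *Flt4* to *Nrcam* (0.990) and *Cdc42bpa* (0.989). For the ligands, *Vegfa* was nearest to *Neat1* (0.995) and *Zfyve27* (0.994), *Vegfb* to *Col9a3* and *Gtf2h4* (both 0.988), and *Vegfd* to *Itga8* (0.984) and *Gnaq* (0.982). *Pgf* (*Rfx1*, 0.924, and *Rpl10*, 0.916) and *Vegfc* (*Erp44*, 0.897, and *Bcl10*, 0.895) had the least similar neighbours. Between members, *Kdr* and *Nrp1* were the most alike (0.990), and *Vegfb* ran opposite to *Nrp1* (-0.959).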

How the data were processed

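RNA from 12 whole lungs was extracted and its mRNA sequenced. The submitters' processing notes name TopHat2 (2.1.1), Bowtie2 (2.3.4), HTSeq (0.10.0) and the mm10 build. The deposited counts are raw reads per gene for 16152 genes, and the authors' CPM values divide each count by the mapped reads of the library, between 48436716 and 62279460. All CPM values gave back whole reads. Percent spliced in, in percent, was deposited for 661162 splice events with the reads behind each. No row of the count table lacked a gene, and 16136 genes matched a symbol.

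Counts were tested with edgeR (4.0.16, R 4.3.3), after TMM normalization, in one quasi-likelihood fit of 12 libraries which kept 15994 genes that reached 1 CPM in 3 or more libraries. Calls needed a log2 fold change beyond 1 in either direction and an FDR (Benjamini-Hochberg) under 0.05. A second fit scaled each library by 10 pan-endothelial markers, taken as known. Ratios used counts plus 0.5 and exact permutation tests (SciPy 1.17.1). The test was checked on simulated counts. The members and gene lists were chosen with earlier results of these data known. All 10 members are described. From each list, up to 3 called genes with the largest change from E18.5 to P5 could be named, and for each member the 2 genes with the most similar profile. Other listed genes were named to show the spread within a list. Alternatives were other scalings, DESeq2 (1.42.0), no filter, fits of fewer libraries and a replicate block. The fits on reads recovered from CPM, those without the E15.5 libraries rich in cardiac muscle RNA, and those of the endothelial scale without the thymus-rich libraries were chosen after seeing the data.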

Additional observations from a re-analysis of the deposited data

How the results depend on the processing

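Without the fold cutoff, the counts of members became 5 rising before birth, 8 higher and 2 lower from E18.5 to P5, and 1 lower from E15.5 to P8. With each library left out in turn, members called higher from E18.5 to P5 numbered 3 to 4 and from E15.5 to P8 5 in each fit. Other scalings, DESeq2, no filter, 2 time-points alone and recovered reads kept the counts past both cutoffs. Fits without the libraries rich in thymus or cardiac RNA kept the count from E18.5 to P5. All of these moved the median of all genes by less than 0.1. By the FDR alone, library size or total mapped reads gave 4 members rising before birth and 7 higher from E18.5 to P5, without *Vegfc*. The 2 time-points alone gave 3 rising before birth. From E15.5 to E18.5, log2 fold changes near 0 changed sign with 1 library left out (-0.050 to 0.21 for *Vegfa*, -0.024 to 0.088 for *Vegfb*, -0.060 to 0.15 for *Vegfc*, -0.29 to 0.074 for *Pgf*), and *Vegfa* was at -0.014 without the 2 libraries rich in cardiac RNA. From P5 to P8, *Nrp1* reached 0.050 with 1 library left out. Without the thymus-rich libraries, which leaves P8 with 1 library, *Vegfb* was at -0.18, *Kdr* at 0.027, *Flt1* at 0.087 and *Nrp1* at 0.099. The causes were not tested.

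Replicate numbers did not pair the libraries. Deviations of same-numbered libraries correlated between -0.293 and 0.27, with 4 of 18 pairs over 0.1. The number of libraries that correlated best with their own number at every other time-point was 0. The fit with the replicate block kept 3 members called higher from E18.5 to P5. By the FDR alone it lost *Pgf*, leaving 1 member lower.

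Relative to the pan-endothelial markers and before birth, 1 to 2 members were above the threshold upwards and 0 to 3 downwards with 1 library left out. Scaling by *Pecam1* and *Cdh5* alone gave 0 and 6, the block 0 lower, the fit without the cardiac-rich libraries 0 and 0, and that without the thymus-rich libraries 2 lower. From E18.5 to P5 the count higher ranged from 0 to 1. From P5 to P8 it ranged from 1 to 4, and was 0 with *Pecam1* and *Cdh5* alone. Signs changed for *Kdr* before birth (-0.18 with *Pecam1* and *Cdh5* alone, -0.099 to 0.13 with 1 library left out, -0.099 without the thymus-rich libraries, -0.11 without the cardiac-rich libraries), for *Vegfd* (-0.063 with *Pecam1* and *Cdh5* alone) and for *Flt4* (-0.14 to 0.051 with 1 library left out). From E18.5 to P5 *Nrp1* was at 0.033 with *Pecam1* and *Cdh5* alone. From P5 to P8 *Vegfd* (-0.12), *Flt4* (-0.050) and *Nrp2* (-0.036) changed sign on that scaling, and *Vegfd* ranged from -0.042 to 0.054 with 1 library left out. *Vegfb* (-0.091) and *Nrp2* (-0.058) changed sign without the thymus-rich libraries, which leaves P8 with 1 library. *Nrp2* relative to *Nrp1* ranged from -0.10 to 0.023, *Flt1* relative to *Kdr* from -0.21 to -0.088 and *Vegfd* relative to *Vegfc* from 0.20 to 0.38 with 1 library left out, and the last 2 passed the exact test's adjusted threshold without E15.5 replicate 3 and without P8 replicate 1 (both 0.043).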
